A study of Hymenochirus boettgeri with 8 samples.

Results

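Gene totals of late embryos and tadpoles were compared with those of eggs and cleaving embryos in Hymenochirus boettgeri, a small clawed frog related to Xenopus. The late libraries were 2 of NF stage 26, the tail bud stage on the Nieuwkoop and Faber scale made for Xenopus, and 2 of swimming tadpoles. The early libraries were 2 of unfertilized eggs and 2 of the 8-cell stage, so all 8 libraries of the series entered, 4 against 4. All were wild type with no treatment given, each made from whole eggs, embryos or tadpoles by poly-A capture and strand-specific sequencing. The TPM of all transcripts of one assembly gene (a gene as a transcript assembler numbers it) were added, which gave 145306 gene totals. Genes whose total reached 1 TPM in 4 or more of the 8 libraries were tested, and 60923 genes (41.9%) passed. TPM is a relative unit, the share of a transcript among all transcripts of a library after scaling for length, and the tested genes held 83.2% to 98.3% of it per library.

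The file pairs no gene with a name, sequence or position, so the genes are described as classes and only 4 by identifier. The stage labels were therefore not checked against marker genes, and no protein or promoter is shown. Nothing in the labels ties the 2 libraries of a stage to different clutches, and the p-values therefore cover only the spread among these 8 libraries, part of which may be technical. The table gives no read totals, so depth is unknown and no counting interval is given.

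An animal egg is loaded with RNA and protein that the mother made during oogenesis. In frogs the first divisions run on this maternal store while the genome of the embryo is mostly silent. Transcription then starts broadly at the mid-blastula transition, and a large part of the maternal RNA is destroyed around and after that time. At the tail bud stage the nervous system, muscle blocks and blood are forming, and a swimming tadpole has working muscle, brain, heart and sense organs. Frog eggs also store part of their RNA with short poly-A tails. Poly-A capture reads tail length as well as amount, and in whole animals fewer cells of a type and less RNA per cell cannot be told apart.

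Libraries of one period were more alike than libraries of different periods. Across the tested genes, log2(TPM + 1) correlated at r = 0.636 to 0.796 between 2 late libraries and at r = 0.684 to 0.915 between 2 early libraries. Between a late and an early library r was 0.180 to 0.473 (16 pairs). The points are genes, which are not independent, and pairs share libraries, so these values describe the libraries only. A pair of late libraries shared 39 to 67 of their 100 most abundant genes and a pair of early libraries shared 49 to 81. A late and an early library shared 13 to 32. By this count the late libraries did not group by stage. Stage 26 replicate 1 shared 66 with tadpole replicate 2, and stage 26 replicate 2 shared 67 with tadpole replicate 1. The 2 stage 26 libraries shared 48 and the 2 tadpole libraries 56. By r the 2 tadpole libraries were the closest late pair (0.796). The 2 stage 26 libraries (r = 0.713) were less alike than the 2 cross-stage pairs just given (r = 0.727 and 0.774). The eggs did not group by stage either: the 2 egg libraries shared 49 (r = 0.684), the lowest of the early pairs. Each egg library shared 58 to 68 with the 8-cell libraries (r = 0.763 to 0.844). The 2 8-cell libraries shared 81 (r = 0.915).

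A large part of the tested genes differed between late and early libraries. In the late libraries 21245 genes rose (34.9% of those tested) and 6954 fell (11.4%), together 28199 (46.3%; limma on log2(TPM + 1), two-sided, Benjamini-Hochberg adjusted p under 0.05). The median change was 2.24 on the log2 scale among the genes that rose and -2.01 among those that fell. Of the rises 99.4% were at least 2-fold, 61.8% at least 4-fold and 6.62% at least 16-fold on this scale, against 99.4%, 50.9% and 4.44% of the falls. The median change of all tested genes was 0.57 with TPM as deposited. It moved with the filter: it was 0.71 without a filter, 0.92 for genes with a mean of 1 TPM and 0.07 with 5 TPM in 4 libraries. Among the 47210 tested genes that reached 1 TPM in libraries of both periods it was 0.12. This set leaves out 12669 genes that reached 1 TPM in late libraries only and 1044 in early libraries only.

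The balance of rises and falls rested on the scaling more than their total, which was 29050 with median-of-ratios scaling (22697 rises) and 28321 with quantile normalization. With quantile normalization, which gives all libraries one distribution of values, 13753 genes rose and 14568 fell. The median change of all tested genes was then -0.10. This normalization raises values of 0, and raises them more in libraries with more zeros. The part of this in the falls was not tested. Relative to the median gene, that is with the median change set to 0, 16505 rose and 12559 fell. Rises were 75.3% of the calls with TPM as deposited, 48.6% with quantile normalization and 56.8% relative to the median gene. The number of falls also rested on single stages. It was 3024 without the tadpoles and 3596 without the 8-cell embryos, when 17484 and 18727 genes rose. Without stage 26 it was 5098 and without the eggs 8965, when 18910 and 18112 genes rose. The part of the smaller number of libraries in these values was not tested.

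All 4 late libraries lay above all 4 early libraries for 19069 genes (31.3% of those tested) and below them for 5866 (9.63%). Among the genes that rose, 18552 showed no such overlap, and among those that fell, 5312. Another 1071 genes without overlap were not called, 517 of them higher late and 554 lower.

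Most of the rises were of genes close to 0 in the egg and the cleaving embryo. Of the 21245 genes that rose, 12650 (59.5%) were under 1 TPM in all 4 early libraries, and 6163 (29.0%) were listed at 0 in all of them. A gene under 1 TPM in every early library could be tested only if it reached 1 TPM in all 4 late libraries, so the filter made such genes differ. There were 12669 of these genes and 12650 were called, which says nothing beyond the filter. In the other direction, 1044 genes reached 1 TPM in early libraries only, and 1030 of them fell. The remaining 47210 genes reached 1 TPM in libraries of both periods, and here 8595 rose (18.2%) and 5924 fell (12.5%), with a median change of 0.12.

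Genes with a value above 0 in all 8 libraries gave another balance, which this filter itself favours. A fit to these 33455 genes alone called 4667 rises and 5352 falls, and their median change was -0.15. The filter removes each gene with a 0 in any library. Of the calls among all tested genes it keeps 4744 of 21245 rises and 5556 of 6954 falls. The removed genes include 6163 rises from 0 in all early libraries and 248 falls to 0 in all late ones. This balance therefore says nothing beyond the filter. The number of genes above 0 ran from 112673 to 121300 in the late libraries and from 51089 (egg replicate 1) to 83561 in the early libraries. These numbers moved with the rises, and the part of sequencing depth in them was not tested.

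**Figure D1:**
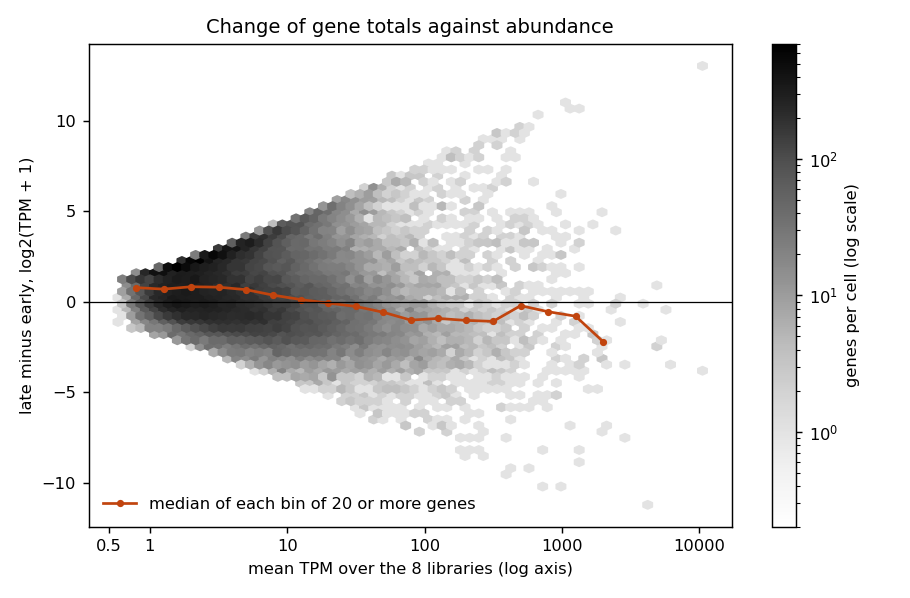
Change between late and early libraries (y axis, late minus early, log2(TPM + 1)) against the mean TPM of each of the 60923 tested genes over the 8 libraries (x axis, log scale). Grey cells show the number of genes, and the line joins medians of bins of 20 or more genes: it lies above 0 for genes of a few TPM and below 0 for the abundant ones, as the class medians of 0.70 (2 to 10 TPM) and -0.94 (100 TPM or more) do.

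With TPM as deposited, rises outnumbered falls among scarce genes and falls outnumbered rises among the most abundant ones; with quantile normalization this turned round for genes under 2 TPM. Of genes averaging less than 2 TPM over the 8 libraries, 38.5% rose and 3.72% fell, and among those of 2 to 10 TPM 36.4% rose and 9.45% fell. Of the 11617 genes of 10 to 100 TPM, 27.1% rose and 24.0% fell. Of the 1139 genes of 100 TPM or more, 23.6% rose and 38.4% fell, which is 269 rises against 437 falls. The median change in the 4 classes, from scarce to abundant, was 0.73, 0.70, -0.12 and -0.94. Many of the scarce genes that rose reached 1 TPM in late libraries only, and the shares that follow leave such genes out by definition. Among genes at 1 TPM or more in libraries of both periods, 9.39%, 20.1%, 21.0% and 20.2% of the 4 classes rose. In the same order 1.95%, 10.1%, 25.3% and 39.2% fell.

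The excess of falls among the most abundant genes was there under each scaling tried: 382 falls against 269 rises with median-of-ratios scaling, 405 against 299 with quantile normalization and 540 against 233 relative to the median gene. The excess of rises among the scarcest genes was not. With quantile normalization 12.3% of the genes under 2 TPM rose and 23.0% fell. The classes came from the deposited TPM throughout, in which 1277 genes early and 943 late reached 100 TPM on average. Genes could enter the top class through their early values, so the scalings are not separate tests of the excess of falls. Among genes above 0 in all 8 libraries, 10.6% of those under 2 TPM rose and 4.63% fell. Of those at 100 TPM or more 19.0% rose and 39.5% fell. This filter itself favours falls, so these shares are a description only.

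**Figure D2:**
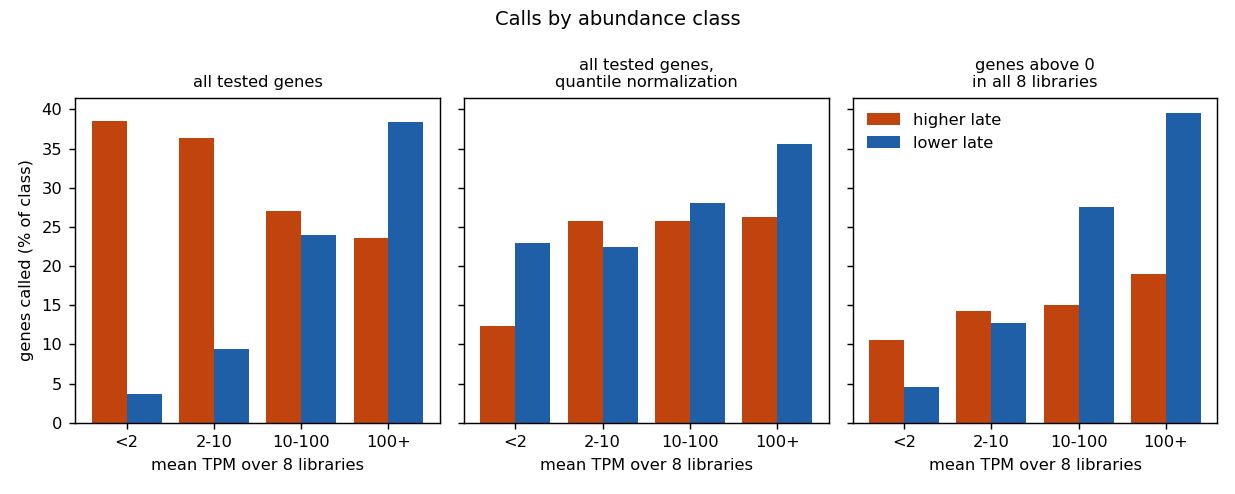
Percentage of genes called higher late (orange) and lower late (blue), y axis, in 4 classes of mean TPM over the 8 libraries, x axis. The left panel has all tested genes with TPM as deposited, and the middle panel the same genes and classes after quantile normalization. The right panel has the calls of the left panel among genes above 0 in all 8 libraries, a filter that itself favours falls. In each panel the blue bar is the taller one at 100 TPM or more (38.4%, 35.6% and 39.5%), and the bars under 2 TPM change places with quantile normalization (12.3% higher, 23.0% lower).

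The number of genes that reached 1 TPM followed the same division. Genes at 1 TPM or more numbered 92680 and 67206 in the stage 26 libraries and 82099 and 93289 in the tadpole libraries, against 33556 and 48471 in the egg libraries and 48678 and 53947 in the 8-cell libraries. The lowest late library, stage 26 replicate 2, lay above the highest early one. The late libraries averaged 83818.5 ± 12209 and the early libraries 46163 ± 8778 (SD, n = 4 each). A two-sided exact permutation test of this difference gave p = 0.0286, the smallest p that 4 against 4 libraries can give, and it did not pass after adjustment over the 3 measures per library (0.0857).

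At higher minimums the difference shrank and then turned. At 10 TPM or more there were 17372, 11686, 13337 and 17022 genes in the late libraries and 10501, 10554, 12863 and 13666 in the early libraries, and the periods overlapped (exact permutation p = 0.143). At 100 TPM or more there were 828, 1119, 989 and 836 in the late libraries and 1361, 1104, 1367 and 1276 in the early libraries. Only stage 26 replicate 2 reached past the lowest early library there (exact permutation p = 0.0571). The late libraries thus held more genes at a low level and had lower mean numbers at 100 TPM or more.

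**Figure D3:**
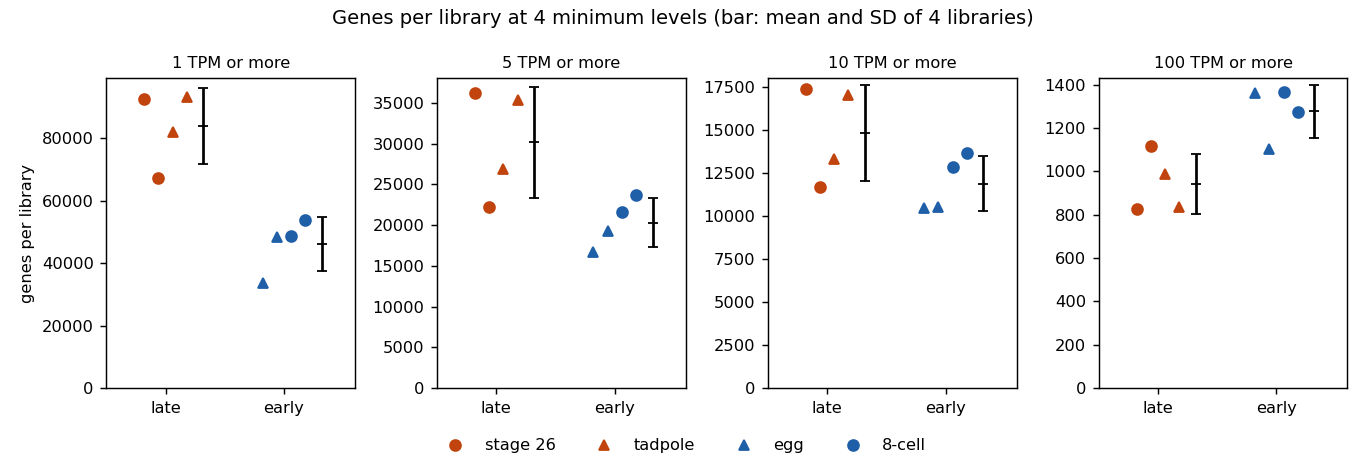
Number of genes per library (y axis) at 1, 5, 10 and 100 TPM or more, in late (orange) and early (blue) libraries. Circles are stage 26 and 8-cell libraries, triangles tadpole and egg libraries, and black bars the mean and SD of 4 libraries. At 1 TPM the late libraries (67206 to 93289) lie above the early ones (33556 to 53947), and at 100 TPM the late libraries (828 to 1119) lie mostly below them (1104 to 1367).

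The RNA was less concentrated late on average, with an overlap between the periods. The 100 most abundant genes held 16.4% and 24.1% of the TPM in the stage 26 libraries and 21.6% and 16.9% in the tadpole libraries. They held 30.8% and 33.0% in the egg libraries and 23.2% in each of the 8-cell libraries. Stage 26 replicate 2 lay above both 8-cell libraries, and the difference of the means, -7.79 percentage points, did not pass (exact permutation p = 0.0857, also after adjustment). On single transcripts in place of gene totals, the periods did not overlap (14.4% to 21.3% late, 22.3% to 31.8% early, exact permutation p = 0.0286, unadjusted).

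Called genes carried a large part of the TPM in every library. Genes that rose held 44.2%, 39.4%, 49.4% and 48.1% of the TPM in the 2 stage 26 and 2 tadpole libraries, and 2.55%, 3.65%, 3.54% and 4.20% in the 2 egg and 2 8-cell libraries. Genes that fell held 5.66%, 12.6%, 5.81% and 4.04% in the late libraries, in the same order, and 58.6%, 46.7%, 48.1% and 45.7% in the early ones. The genes were chosen on these libraries, so the contrast is set by the choice and the values are a description. The 32724 tested genes without a call held 31.0% to 41.9% of the TPM late and 37.2% to 44.5% early.

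Single libraries differed within each period. Stage 26 replicate 2 kept 12.6% of its TPM in genes that fell, against 4.04% to 5.81% in the other late libraries (including stage 26 replicate 1). Egg replicate 1 had the largest share in these genes and the smallest share in genes that rose.

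**Figure D4:**
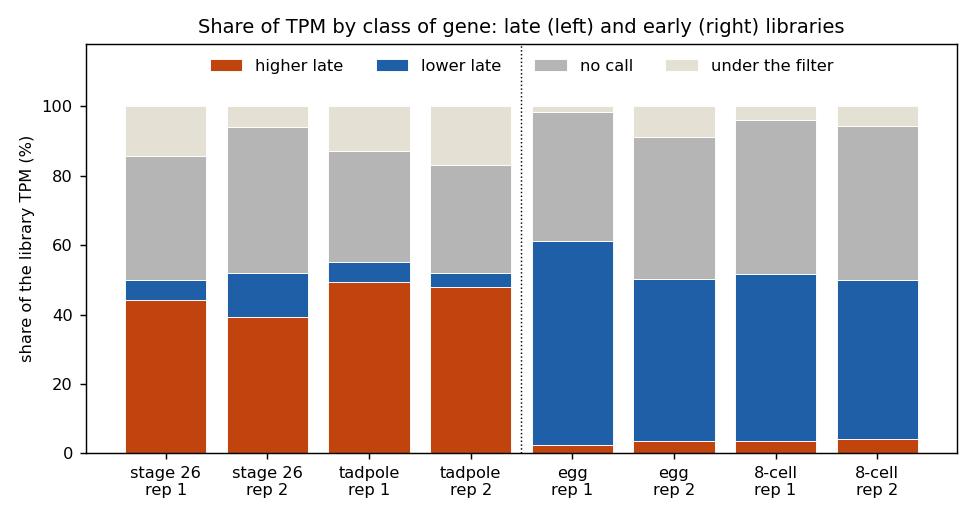
Share of the TPM of each library (y axis, percent) held by genes higher late, genes lower late, tested genes without a call and genes under the filter, in the 4 late libraries (left of the dotted line) and the 4 early ones (right). Genes that rose hold 39.4% to 49.4% of the late libraries and 2.55% to 4.20% of the early ones, and stage 26 replicate 2 has the largest late share of genes that fell (12.6%).

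A small part of the called genes held 50% of the TPM of each class in the period where that class was high. In the late libraries, the most abundant 663 (stage 26 replicate 1), 209 (stage 26 replicate 2), 216 (tadpole replicate 1) and 615 (tadpole replicate 2) of the 21245 risen genes held 50% of the TPM of that class. For the fallen genes the numbers were 131 and 78 in the egg libraries and 202 and 167 in the 8-cell libraries. The 269 risen genes with a mean of 100 TPM or more held 20.4% ± 3.46 of the late TPM and 1.50% ± 0.217 of the early TPM (SD, n = 4 each). The 17830 risen genes that averaged less than 10 TPM held 11.8% ± 2.63 of the late TPM and 0.782% ± 0.229 of the early TPM. Among the genes that fell, the 437 of 100 TPM or more held 4.28% ± 3.25 late and 32.8% ± 4.56 early.

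Many of the genes that fell kept a measurable level. Of the 6954 genes that fell, 3452 (49.6%) were still at 1 TPM or more in all 4 late libraries, and 510 (7.33%) at 10 TPM or more. For comparison, 16848 of all 60923 tested genes were at 1 TPM or more in all 8 libraries, and 3447 of those fell. That base also asks for this level in the early libraries, which the count of 3452 does not. The 510 fallen genes at 10 TPM or more held 4.58% ± 3.20 of the late TPM and 26.7% ± 3.10 of the early TPM, with a median change of -2.26. Under 1 TPM in all late libraries were 1030 fallen genes, and 248 (3.57%) were listed at 0 in all 4. The 248 held 0.502% to 1.03% of the TPM in the early libraries.

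A smaller class of risen genes was already present in the egg. At 1 TPM or more in all 4 early libraries there were 1319 risen genes (6.21% of the rises). Of the 16848 tested genes at 1 TPM or more in all 8 libraries, 1319 rose (7.83%, against 34.9% of all tested genes). A rise is called for lower early values in these same libraries, so the choice of genes favours a small share. The 1319 genes held 17.4% ± 3.53 of the late TPM and 2.34% ± 0.340 of the early TPM. Of the 1319, 192 were at 10 TPM or more in all early libraries. The 192 held 8.20% and 14.4% in the stage 26 libraries and 15.5% and 8.86% in the tadpole libraries. The 6163 risen genes listed at 0 in all early libraries held 6.54% and 4.37% in the stage 26 libraries and 8.45% and 9.16% in the tadpole libraries. The 12650 risen genes under 1 TPM in all early libraries held 13.9%, 9.64%, 15.5% and 17.4% in the late libraries, in that order, where the 1319 held 14.1%, 19.7%, 21.1% and 14.6%. The order of these classes was thus not the same in all late libraries.

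Most of the top-ranked genes of each period were called. Of the 100 most abundant genes, 65 and 54 in the stage 26 libraries and 77 and 69 in the tadpole libraries had risen, and 3 to 10 per late library had fallen. In the early libraries 67 to 76 of the 100 had fallen and 0 had risen. There were 30 genes among the 100 most abundant of all 4 late libraries, of which 19 rose and 1 fell. There were 42 in all 4 early libraries, of which 34 fell. Both lists shared 7 genes, of which 1 fell and 0 rose, so 6 genes were among the top 100 in all 8 libraries without a call. High rank in 1 period favours a call in that direction, so these counts describe both ends and test nothing.

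The largest rises with a mean of at least 10 TPM were of genes near 0 in the early libraries. A change of this size all but requires that, so the choice of genes set it. Of the 12756 tested genes with such a mean, 3015 rose without overlap between the periods. The 20 with the largest changes ran from 8.76 to 13.02 (log2, adjusted p at most 1.17e-05, limma). Their late means lay between 570.0 and 20991 TPM, and no early library had more than 1.81 TPM of any of them. Of the 20, 10 were listed at 0 in all early libraries. Together the 20 held 5.18% and 2.22% of the TPM in the stage 26 libraries and 3.75% and 5.70% in the tadpole libraries. The highest late library was 1.65 to 16.2 times the lowest for these genes (median 5.70).

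The gene with the largest rise was c80106_g1. Its total was 29675 and 7977 TPM in the stage 26 libraries and 13679 and 32633 TPM in the tadpole libraries, against 1.75 and 0.855 TPM in the egg libraries and 0.567 and 1.81 TPM in the 8-cell libraries. It was the most abundant gene of 3 late libraries and the second of stage 26 replicate 2. The late libraries differed among themselves, with stage 26 replicate 2 the lowest, and each lay far above every early library. The change was 13.02 (log2, SE 0.58, adjusted p = 5.15e-07, limma).

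The smallest p among the other rises was that of c4346_g1, a gene of 2 transcripts. It had 1460 and 2224 TPM in the stage 26 libraries and 3139 and 1424 TPM in the tadpole libraries, was listed at 0 in both egg libraries and had 0.031 and 0.020 TPM in the 8-cell libraries. Stage 26 and tadpole values overlapped. The change was 10.91 (log2, SE 0.46, adjusted p = 5.15e-07, limma), and it ranked 13 to 41 among the genes of the late libraries.

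The largest falls were of genes that were abundant but uneven in the early libraries. The abundance was set by the choice, since falls of this size need a high early level. Of the 12756 tested genes with a mean of at least 10 TPM, 2485 fell without overlap between the periods. The 20 with the largest changes ran from -11.22 to -7.28 (log2, adjusted p at most 9.90e-05, limma). Their early means lay between 195 and 8679 TPM. In the late libraries 5 of the 20 were listed at 0 throughout, and the highest value of any was 94.8 TPM. The highest early library was 2.49 to 86.3 times the lowest (median 9.61). Of the 20 genes 17 had a single transcript, against 13 of the 20 largest rises, 4148 of all 6954 falls, 10720 of all 21245 rises and 32610 of all 60923 tested genes.

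The gene with the largest fall was c46051_g1, with 1 transcript. It was listed at 0 in stage 26 replicate 1 and both tadpole libraries and had 1.04 TPM in stage 26 replicate 2, against 402 and 24179 TPM in the egg libraries and 714 and 9422 TPM in the 8-cell libraries. Replicate 2 of both early stages lay far above replicate 1. The change was -11.22 (log2, SE 1.09, adjusted p = 3.30e-05, limma), and this SE was the largest among the 4 genes given by identifier.

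The smallest p among the other falls was that of c80136_g1. It had 0.381 and 0.898 TPM in the stage 26 libraries and was listed at 0 in both tadpole libraries, against 2480 and 1076 TPM in the egg libraries and 994 and 1225 TPM in the 8-cell libraries. Each of its 3 transcripts was at 177.7 TPM or more in every early library and at 0.730 TPM or less in every late one. The change was -10.04 (log2, SE 0.50, adjusted p = 5.76e-07, limma).

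**Figure D5:**
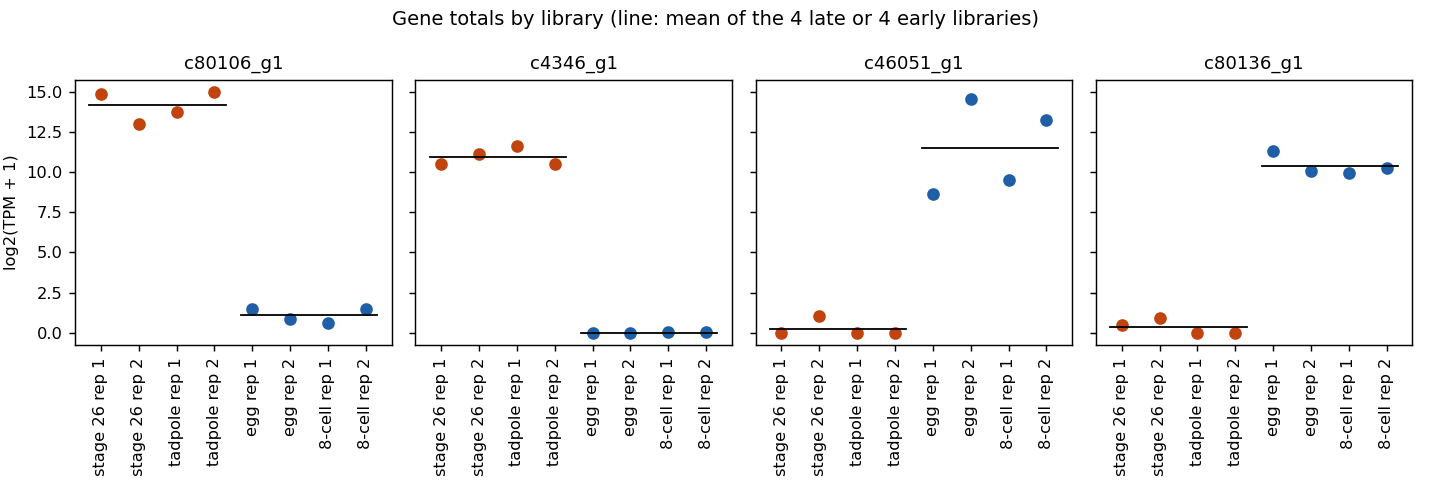
Gene totals of the 4 genes described by identifier, as log2(TPM + 1) (y axis), in each of the 4 late (orange) and 4 early (blue) libraries, with a line at the mean of each period. The 2 genes on the left are high in all late libraries (changes of 13.02 and 10.91) and the 2 on the right in all early libraries (-11.22 and -10.04), where c46051_g1 spreads from 402 to 24179 TPM.

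Within the late period the genes that rose leaned to the tadpole and the genes that fell to stage 26. Of the risen genes, 4552 (21.4%, against 16.1% of all tested genes) were higher in both tadpole libraries than in either stage 26 library, and 2752 (13.0%, against 17.8%) were lower in both. For the fallen genes the tadpole libraries were above for 640 (9.20%) and below for 2013 (28.9%). After quantile normalization the shares were 24.0% above and 15.0% below among risen genes, and 9.23% and 27.7% among fallen genes, against 18.1% and 19.8% of all tested genes. A call needs a small spread within each period, so these shares touch the choice of genes, and they were not tested.

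Within the early period the order of the stages rested on the scaling. With TPM as deposited, 28.9% of all tested genes were higher in both 8-cell libraries than in either egg library and 4.57% were lower, and among fallen genes the shares were 27.8% and 7.94%. With median-of-ratios scaling 8.80% of the fallen genes were higher at the 8-cell stage and 26.7% lower, against 15.8% and 12.6% of all tested genes. After quantile normalization 15.0% of the fallen genes were higher and 19.2% lower, against 15.7% and 25.6% of all tested genes. Many risen genes are listed at 0 in several early libraries and cannot show an order there with TPM as deposited. Quantile normalization gives tied zeros an average rank, so a 0 takes a higher value in a library with more zeros. After it 44.8% of the risen genes were lower in both 8-cell libraries than in either egg library, against 3.03% with TPM as deposited. The larger number of genes above 0 in the 8-cell libraries (78406 and 83561) than in the eggs (51089 and 77233) moved with this pattern, and its part was not tested.

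The spread between libraries was of like size in both periods over all tested genes, with a median SD of 0.68 late and 0.65 early on the log2 scale. Among genes that rose it was 0.70 late and 0.28 early, and among genes that fell 0.52 late and 0.70 early. Values near 0 are compressed on this scale, so a smaller spread in the period with the lower level is set in part by the scale and by the choice of genes.

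Over all tested genes, those with many assembled transcripts rose more often and fell less often, by counts and without a test of the difference, but not at each abundance. Genes of 10 or more transcripts, 175 in all, rose in 52.6% and fell in 4.57% of cases. Among genes of 4 to 9 transcripts 41.7% rose and 7.70% fell, and among genes of 1 transcript 32.9% rose and 12.7% fell. Genes of 10 or more transcripts were also more abundant, with a median of 16.3 TPM over the 8 libraries against 3.53 TPM for genes of 1 transcript. Within the class of 10 to 100 TPM the order was the same: 40.1% of genes of 4 to 9 transcripts rose and 11.9% fell, while 22.7% of genes of 1 transcript rose and 28.3% fell. Under 2 TPM it was not: 36.5% of genes of 4 to 9 transcripts rose and 3.10% fell, while 38.6% of genes of 1 transcript rose and 3.79% fell. After quantile normalization, in the class of 10 to 100 TPM, 38.4% of the genes of 4 to 9 transcripts rose and 14.7% fell. Of the genes of 1 transcript in the class of 10 to 100 TPM, 21.7% then rose and 32.3% fell. The number of transcripts comes from the assembly, and the part of the assembly in this pattern was not tested.

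The leading transcript of a gene took a slightly smaller part of it in the late libraries on average. Over 848 genes of 2 or more transcripts with at least 10 TPM in all libraries, the median share of a gene's TPM in its most abundant transcript was 69.0% and 72.2% in the stage 26 libraries and 71.9% and 69.98% in the tadpole libraries. It was 74.6% and 72.8% in the egg libraries and 73.9% and 71.5% in the 8-cell libraries. The periods overlapped and the difference of the means, -2.44 percentage points, did not pass (exact permutation p = 0.0857, also after adjustment). Over the 135 genes with at least 50 TPM in all libraries they did not overlap, with 72.3% to 73.3% late and 74.3% to 75.0% early (exact permutation p = 0.0286, unadjusted).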

How the data were processed

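The authors deposited TPM per transcript. The tool named in the submitters' processing notes is kallisto 0.42.4, which estimates these values by pseudoalignment. How the transcripts were assembled or filtered is not given in the sources used here. Columns were matched to samples by title, and stages and replicate numbers came from the source names. TPM was summed over the identifiers of a gene (the part before the isoform number), which gave 145306 genes from 220713 transcripts; the columns sum to between 991754 and 998506.

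Totals were transformed to log2(TPM + 1), which understates the change of low genes. Limma 3.58.1 in R 4.3.3 fitted 1 mean for the late and 1 for the early libraries (6 residual and 6.47 prior degrees of freedom, variance prior following mean expression), so differences between the stages of a period count as spread. Calls had a Benjamini-Hochberg adjusted p under 0.05 over all 60923 genes tested. The fit was tested on simulated data. Values per library were compared by two-sided exact permutation tests (scipy 1.17.1). Python 3.11.15, pandas 2.3.3, numpy 2.4.6 and matplotlib 3.10.9 were used.

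Genes given by identifier were called, had a mean of at least 10 TPM and no overlap between periods; in each direction the largest change and the smallest p among the others were taken. The comparison, this rule and the classes were chosen with earlier results of these data known. Lists of marker genes were not used, since no identifier is paired with a name. Alternatives covered the pseudocount, scaling, filter, design, variance prior, replicate block, gene or transcript level, a minimum fold, and each library or stage left out. Setting the median change to 0 and testing only genes of 1 transcript were added after seeing the data.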

Additional observations from a re-analysis of the deposited data

Results flagged for a closer look

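In 2 of 18 sets of 4 libraries examined (the measures and genes above, late and early apart), 1 library lay far from the other 3 by Dixon's 95% limit, which chance passes in about 1 set in 20. For c46051_g1 it was stage 26 replicate 2, with 1.04 TPM where the other late libraries are listed at 0; with 3 values at 0 any other value passes the limit, so the chance rate does not apply to this set. For c80136_g1 it was egg replicate 1, with 2480 TPM against 994 to 1225 TPM in the other early libraries.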

How the results depend on the processing

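The 4 genes given by identifier kept their direction and their call in all 21 alternatives fitted to each, with adjusted p of at most 0.00197 (limma). They were chosen for large changes or small p in these same libraries, so the choice favoured this outcome. The total of 28199 calls was 42959 (35500 rose) without a filter, 10018 (5873 rose, 4145 fell) with a minimum of 5 TPM in 4 libraries, 10019 (4667 rose) for genes above 0 in all 8 libraries and 13129 (11039 rose, 2090 fell) with a minimum of 2-fold. Among genes of 1 transcript alone it was 14601 (10539 rose, 4062 fell), where fewer genes were tested. Quantile normalization gave 13753 rises and 14568 falls, and setting the median change to 0 gave 12559 falls. Falls numbered 3024 without the tadpoles, 3596 without the 8-cell embryos, 5098 without stage 26 and 8965 without the eggs. Each of these fits had 2 libraries in 1 period and 4 in the other. The cause was not tested. Leaving out each library in turn gave 24504 to 28340 calls, 19294 to 21266 rises and 5210 to 7992 falls.

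The difference in genes per library, 37655.5 at 1 TPM or more, was 9862 at 5 TPM (exact permutation p = 0.0571), 2958 at 10 TPM (p = 0.143, exact) and -334 at 100 TPM (p = 0.0571, exact). Without 1 library it was 33453 to 43193, with an exact permutation p of 0.0571 each time, the smallest that 3 against 4 can give. The difference in the concentration of TPM was -9.23 percentage points on transcripts, and that in the share of the leading transcript was -1.85 points at a minimum of 50 TPM. Each had an unadjusted exact permutation p of 0.0286.

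The labels number the libraries of each stage 1 and 2 with no word on what a number shares. Differences between replicates 1 and 2 correlated between stages at r from -0.41 to 0.068 across genes, so the numbers were not taken to pair the samples. The -0.41 is between stage 26 and tadpoles, where unlike numbers deviated together. With the replicate number as a block 27257 genes were called, 20827 of them rises and 6430 falls. That fit has a mean for each stage, and stage means without the block gave 28617 calls. The block joins like numbers, so it cannot show what unlike numbers share.

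Read totals are unknown and a value of 0 can be a missed low level, so what depth limits was not tested.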

Other observations

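Transcripts of one gene mostly moved together. Among risen genes with 2 or more transcripts that reach 1 TPM in a library, each such transcript had a higher late mean on the log2 scale in 9622 of 10013 (96.1%). Among fallen genes each was lower in 2375 of 2702 (87.9%), so 391 risen and 327 fallen genes (3.90% and 12.1%) held at least 1 transcript with no change or a change the other way. The transcripts add up to the gene total, which favours one direction.

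Called genes whose identifiers place them in one component of the assembly mostly had the same direction, by counts and without a test. Of 9961 components with at least 2 tested genes, 4060 had at least 2 calls: 2919 had rises alone, 774 had falls alone, and 367 had both a rise and a fall. The 9961 components held 9760 risen and 3269 fallen genes, and the share of mixed sets among unrelated genes was not computed.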
